A study of Mus musculus with 6 samples.

Results

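The histone genes of mouse skin squamous cell carcinoma cells were examined as a family. Members were the protein-coding rows whose symbol began with H1f, H2ac, H2bc, H3c or H4c and a digit, or with one of the older Hist names. Of 55481 rows in the table, 21834 were protein-coding and 69 met the rule, made up of 11 H1, 17 H2A, 17 H2B, 12 H3 and 12 H4 genes. The tumours had been raised with DMBA, a carcinogen, and TPA, a tumour promoter. The Itga6hi CD80pos group held cells with much integrin alpha 6, a basal epidermal surface protein, and with CD80, a ligand of CD28 and CTLA4 on T cells, and the submitters describe it as stem-like. The Itga6low CD80neg group held cells low in integrin alpha 6 and without CD80, described as differentiated. Each group had 2 libraries of polyA RNA. A labelled group of 2 further samples, high in Itga6 and without CD80, was not analysed here. Strain, age, sex, the number of animals and the source of each replicate are not given in the sources used here, so every p-value measures the spread between these libraries, which may be technical.

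The libraries differed in more than the sort. Summed TPM (a transcript level divided by transcript length and set to a fixed library total) of 10 keratinocyte markers was 47413 and 47516 in the Itga6hi CD80pos libraries against 2050 and 5737 in the Itga6low CD80neg libraries. Fibroblast markers ran the other way, at 22.5 and 90.4 against 9636 and 7030 TPM, with Fap at 0 in 1 Itga6hi CD80pos library. Red cell markers summed to 185 and 62.5 against 711095 and 504900 TPM. Slc4a1, the red cell anion exchanger, was at 0 in 1 Itga6hi CD80pos library. These 3 lists separated the groups. Myeloid markers summed to 1077 and 744 against 593 and 2602 TPM, nearly all of it S100a8 and S100a9, which keratinocytes also express. Without those genes the myeloid sum was 6.79 and 4.49 against 11.2 and 24.6 TPM, and 7 of the 10 markers were lower in both Itga6hi CD80pos libraries than in either of the others, with Retnlg at 0 in both and Adgre1 and Lyz2 in 1. Lymphoid markers summed to 142 and 93.5 against 14.0 and 41.7 TPM, nearly all of it Trbc2. Without Trbc2 that sum was 0.436 and 0.340 against 3.36 and 6.89 TPM, and 8 of the 10 markers were lower in both Itga6hi CD80pos libraries. Endothelial markers summed to only 5.09 and 10.7 against 0.610 and 2.61 TPM, and all 5 were higher in both Itga6hi CD80pos libraries than in either of the others. Of the defining T cell markers, Cd3g, Cd4 and Cd8a were at 0 in both Itga6hi CD80pos libraries, and Emcn, an endothelial marker, in 1 Itga6low CD80neg library. Haemoglobin genes took 70.9% and 50.4% of all TPM in the Itga6low CD80neg libraries and at most 0.0185% in the others. Every other gene's TPM in the Itga6low CD80neg libraries is lowered by that share, and all 13474 genes tested had a median log2 fold change of 1.27 toward Itga6hi CD80pos. Histone levels are therefore given on deposited TPM and again with the haemoglobin genes left out of the total, where that median was 0.16. The part of these markers in the histone differences was not tested beyond this rescaling. In bulk samples, fewer cells of a type and less RNA per cell cannot be told apart.

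Histone proteins package DNA: H2A, H2B, H3 and H4 form the core of the nucleosome, and H1 binds the linker between nucleosomes. Most of their genes lie in clusters, have no introns and are expressed in S phase, when new DNA has to be packaged. Messages of this replication-dependent kind usually end not in a polyA tail but in a short stem-loop, which the stem-loop binding protein SLBP holds during processing, export and translation. A smaller number of histone genes make ordinary polyadenylated messages at any phase of the cell cycle. H1f0, which encodes the linker histone H1.0 of quiescent and differentiated cells, and H1f10 are of that kind.

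Because the libraries were made from polyA RNA, the 3′ end of a histone gene bears on how well it is captured, so the stem-loops of the leading members are shown first. In the GENCODE M21 transcripts (GRCm38, the same assembly as mm10), all 69 members were found, 63 with a single exon, 54 on chromosome 13, 10 on chromosome 3 and the rest on chromosomes 6, 11 and 15. The stem-loop was searched for as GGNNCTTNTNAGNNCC on the transcript strand only, with the NN runs required to pair. It was present in 43 members, namely 4 H1, 10 H2A, 9 H2B, 9 H3 and 11 H4, against 55 of all 21901 protein-coding genes (0.251%). Only annotated bases were searched, so a stem-loop beyond an annotated end would be missed. Members without a match include some with short annotated transcripts, such as H2ac13 with 393 bases, H3c10 with 411 and H4c12 with 312. No match therefore does not show that a gene lacks the stem-loop. Capitals mark the stem-loop, each line reads 5′ to 3′, and the flanks are the 5 bases on either side or as many as are annotated.
H2ac24: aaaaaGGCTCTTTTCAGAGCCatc
H2ac11: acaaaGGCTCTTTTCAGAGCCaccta
H1f2: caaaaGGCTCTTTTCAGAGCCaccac
H3c3: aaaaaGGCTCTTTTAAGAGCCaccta
H3c8: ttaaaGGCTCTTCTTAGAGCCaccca
H4c9: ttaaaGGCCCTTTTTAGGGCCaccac
H4c17: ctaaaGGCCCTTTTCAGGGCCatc
H4c2: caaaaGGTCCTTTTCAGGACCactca
The first 3 of these carry the most common form, which 24 members share across H1, H2A, H2B and H3. The form of H3c3 was found in 6 members and that of H4c17 in 6, all of them H4 genes. The H4c9 and H4c2 forms were each found in 2 members, again H4 genes, while the H3c8 form was in that gene alone.

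The annotated ends differed among the abundant members. The H2ac24 stem-loop (chr13:21833026-21833049 with its flanks, minus strand, GRCm38) lies 3 bases before the end of a 482-base transcript. No polyA signal stands in the last 60 annotated bases of that transcript. The H1f2 stem-loop (chr13:23739507-23739532, plus strand) is followed by 840 more annotated bases that close with a polyA signal, and the H4c9 stem-loop (chr13:22040961-22040986, minus strand) by 330 more with such a signal. H1f0 (chr15:79028450-79030504, plus strand), H1f10 (chr6:87980421-87981637, minus strand) and H2bc4 (chr13:23684199-23692908, plus strand) had no match to the stem-loop in their annotated transcripts. A polyA signal stood in the last 60 annotated bases of 18 members, among them H1f0, H1f2, H1f10 and H4c9 but not H2bc4.

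Summed over all 69 genes, histone TPM stood at 869 and 681 in the Itga6hi CD80pos libraries and at 125 and 228 in the Itga6low CD80neg libraries. That is a ratio of group means of 4.40, and a difference of 2.18 in mean log2(sum + 1). With haemoglobin left out of the total the values were 869.5 and 681 against 429 and 459, a ratio of 1.75. On that scale the difference rested on 1 gene, H2ac24: without it the sums were 582 and 419.98 against 409 and 459 TPM, a ratio of 1.16, and the groups overlapped. No p is given for sums over chosen genes, and 2 libraries against 2 cannot give an exact permutation p under 0.33.

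The 5 types did not differ alike. H2A sums were 345 and 337 against 26.8 and 59.0 TPM, the widest gap of the 5, and without haemoglobin 345 and 337 against 92.1 and 119 TPM. That gap was H2ac24: the other 16 H2A genes summed to 57.3 and 76.7 against 20.8 and 59.0 TPM, and without haemoglobin to 57.3 and 76.7 against 71.7 and 119 TPM, overlapping on both scales and with the lower mean in Itga6hi CD80pos on the second. H4 sums were 51.5 and 44.6 against 4.81 and 11.8 TPM, and without haemoglobin 51.5 and 44.6 against 16.6 and 23.7 TPM. H3, the least abundant type here, summed to 21.2 and 20.9 against 2.11 and 5.90 TPM, and without haemoglobin to 21.2 and 20.9 against 7.25 and 11.9 TPM. With H2ac24 counted in, the groups of libraries for these 3 types did not overlap on either scale. H1 sums were 312 and 187 against 62.5 and 102 TPM on deposited TPM, but 312 and 187 against 215 and 206 TPM without haemoglobin. H2B sums were 139 and 91.2 against 28.5 and 48.8 TPM, and without haemoglobin 139 and 91.2 against 98.1 and 98.4 TPM. For H1 and H2B the groups thus overlapped once haemoglobin was left out, with 1 Itga6hi CD80pos library above and the other below both Itga6low CD80neg libraries. With mitochondrial, ribosomal protein and keratin genes left out as well, they did not overlap, at 470.5 and 279.5 against 257 and 274 TPM for H1 and at 210 and 137 against 117.5 and 131 TPM for H2B.

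**Figure D1:**
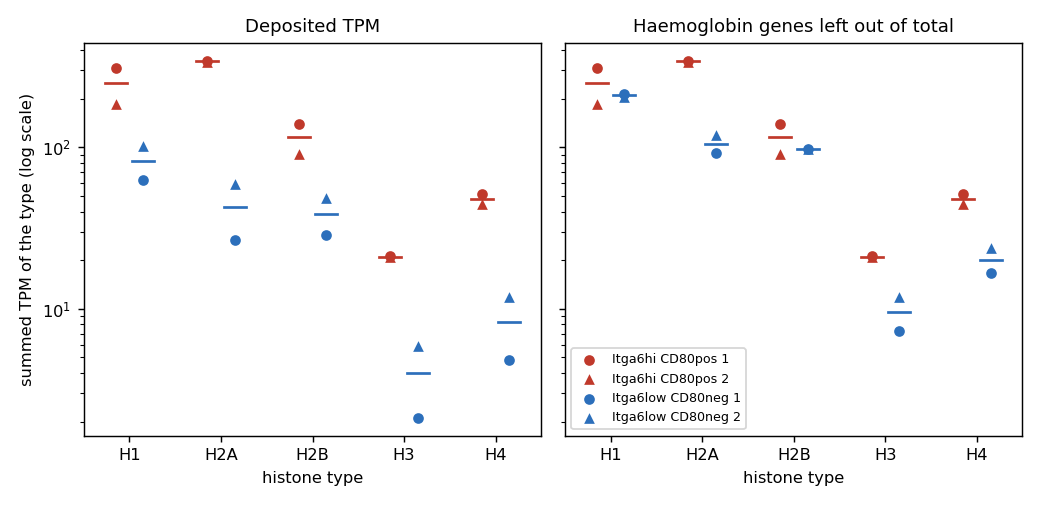
Summed TPM of the members of each histone type (log axis) in the 4 libraries, with a short bar at each group mean, on deposited TPM (left) and with haemoglobin genes left out of the total (right). The H2A sums, which include H2ac24, lie apart on the right, at 345 and 337 against 92.1 and 119 TPM, while the H1 and H2B sums of the groups overlapped.

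The share of each type in a library's own histone total does not depend on how libraries are scaled. H2A made up 39.7% and 49.6% of the histone total in the Itga6hi CD80pos libraries and 21.5% and 25.9% in the Itga6low CD80neg libraries. H1 made up 35.9% and 27.4% against 50.1% and 44.9%, and H2B 16.01% and 13.4% against 22.9% and 21.4%. H4 held 5.92% and 6.55% against 3.86% and 5.17%. The groups did not overlap for these 4 types, and they did for H3, at 2.44% and 3.06% against 1.69% and 2.59%. Much of the H2A shift came through H2ac24, which alone held 33.1% and 38.3% of the histone total against 4.76% and 0.000254%. When the most abundant gene of each type was left out, the difference in H2A share turned from 20.9 to -10.6 percentage points and that in H2B share from -7.45 to 4.61.

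**Figure D2:**
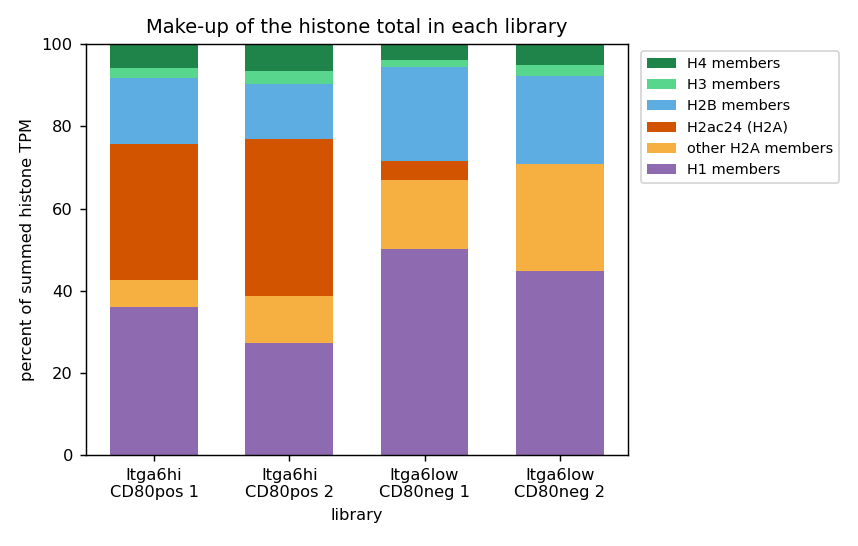
Percent of the summed histone TPM held by each histone type in each of the 4 libraries, with H2ac24 drawn apart from the other H2A genes. H2ac24 holds 33.1% and 38.3% in the Itga6hi CD80pos bars and under 5% in the Itga6low CD80neg bars, where H1 is the largest type at 50.1% and 44.9%.

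Over the family, 33 of the 69 members passed the filter of at least 1 TPM in at least 2 libraries and were tested, and 36 did not, 7 of which were listed at 0 throughout. Of the 33, 21 were called higher and 0 lower in Itga6hi CD80pos at a limma adjusted p under 0.05, the threshold for a call, on a background of 57% of all genes tested called higher and 9.48% lower. At an unadjusted p under 0.05 there were 24 higher and 0 lower. Of the 33, 13 had reached 1 TPM in the Itga6hi CD80pos libraries alone and so had to differ, and all 13 were called. They were H2ac4, H2ac8, H2ac10, H2ac12, H2ac13, H2ac15, H2bc11, H2bc24, H3c8, H4c2, H4c8, H4c12 and H4c17, and the levels of those described further are given with no test. Of the other 20, 8 were called. With either one of the Itga6hi CD80pos libraries left out, fewer members were called, and fewer of all genes. Without Itga6low CD80neg replicate 1 fewer members were called, with little change over all genes. Without Itga6low CD80neg replicate 2 the count of members stayed close. Such fits hold 1 library in a group, so their counts are not given. Counting every member and not the tested ones alone, both Itga6hi CD80pos libraries lay above both Itga6low CD80neg libraries for 47 of 69, no member showed the reverse and 22 overlapped. The same held for 47.5% of all protein-coding genes, or 56.6% of those above 0 in a library, and the reverse for 17.1% of the latter. The same fit was repeated under 4 other scalings between libraries, so a gene could be called under up to 5.

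H2ac24 (Hist1h2ap, chr13:21833026-21833507, minus strand) encodes a replication-dependent H2A and was the most abundant of the 69 members in the Itga6hi CD80pos libraries. Its TPM was 288 and 261 there and 5.94 and 0.000578 in the Itga6low CD80neg libraries, so that no Itga6low CD80neg library came near. The log2 fold change was 6.70 with SE 0.91 (limma adjusted p = 0.00576), and without haemoglobin 5.89 (limma adjusted p = 0.0537). The sequence makes the level of the single gene uncertain: only 6.64% of its 31-base words, the length that kallisto indexes by default, occur in no other gene. H2ac23 shares 422 of its 450 such words with H2ac24 and stood at 1.83 and 0.455 against 0 and 4.68 TPM, high in the one Itga6low CD80neg library where H2ac24 was near 0. Their sum, taken after these values were seen, was 290 and 261 against 5.94 and 4.68 TPM, a ratio of means of 51.8. Without haemoglobin the sum was 290 and 261 against 20.4 and 9.43 TPM, a ratio of 18.4. The summed pair was thus more even between the Itga6low CD80neg libraries than either gene.

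Of the other H2A genes, 6 passed the filter through Itga6hi CD80pos alone. Among these H2ac13 was at 8.16 and 9.93 against 0 in both Itga6low CD80neg libraries, and H2ac4 at 1.92 and 1.53 against 0 in both. H2ac10, H2ac12 and H2ac15 were likewise listed at 0 in both Itga6low CD80neg libraries, which without counts shows neither that the genes are silent nor how large the fold is. H2ac11 stood at 6.76 and 12.4 against 0.910 and 4.09 TPM, with a log2 fold change of 1.71 with SE 0.57 (limma adjusted p = 0.0424) that was called under no other scaling. H2ac18 was at 11.02 and 13.1 against 5.60 and 6.19 TPM, 0.92 with SE 0.29 on the log2 scale (limma adjusted p = 0.0366), and turned to -0.34 without haemoglobin. H2ac19 was as high in the Itga6low CD80neg libraries, with 13.6 and 26.0 against 13.7 and 42.8 TPM and limma adjusted p = 0.637. Every 31-base word of H2ac19 also occurs in H2ac18, which lies near it on chromosome 3, and neither gene has a word of its own. All 556 words of H2ac18 also occur in Gm20633 and all 498 of H2ac19 in Gm20632, which are not members. The sum of H2ac18 and H2ac19 is therefore uncertain too. It was 24.6 and 39.1 against 19.3 and 49.0 TPM, overlapping. Without haemoglobin it was 24.6 and 39.1 against 66.3 and 98.8 TPM, where the Itga6low CD80neg libraries were both higher.

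**Figure D3:**
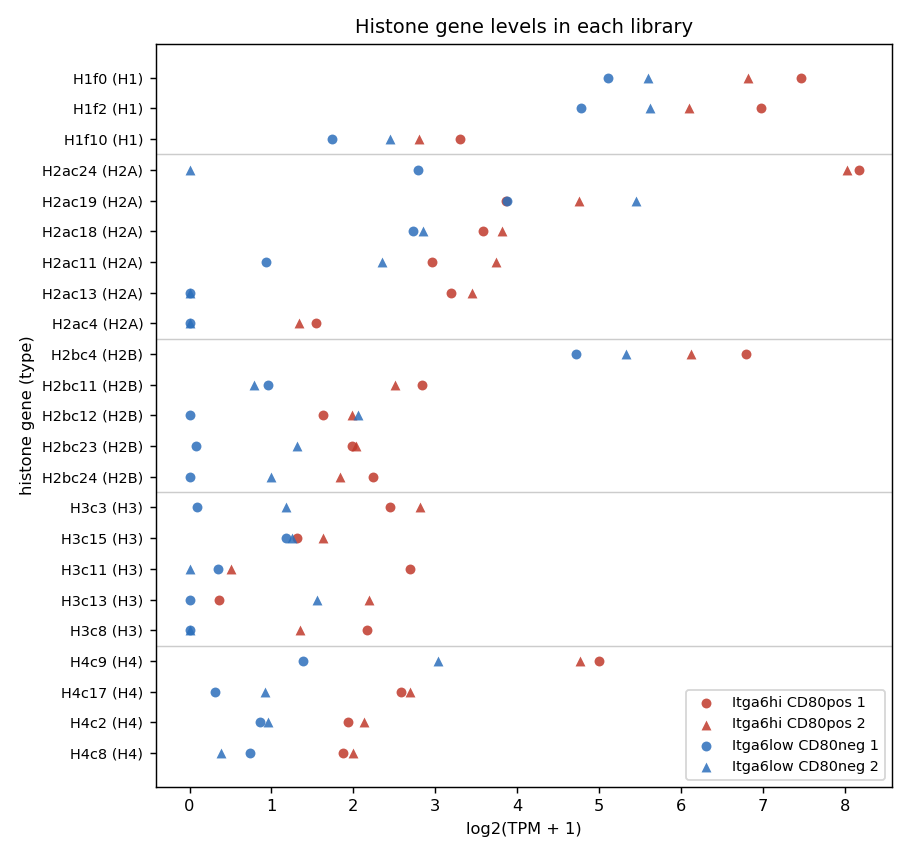
Level of each named histone gene as log2(TPM + 1) in the 4 libraries, grouped by type and ordered by mean TPM. H2ac24 shows the widest gap (288 and 261 against 5.94 and 0.000578 TPM), and H2ac19, H2bc12 and H3c13 are genes whose groups overlap.

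Of the linker histones, 3 genes reached 1 TPM in at least 2 libraries. H1f0 stood at 176 and 112 against 33.4 and 47.4 TPM, with a log2 fold change of 1.79 with SE 0.43 (limma adjusted p = 0.0168). Without haemoglobin it was 176 and 112 against 115 and 95.5 TPM, a change of 0.42 (limma adjusted p = 0.376), and the groups overlapped. H1f2, the replication-dependent H1.2, was at 125 and 67.3 against 26.5 and 48.4 TPM (log2 fold change 1.33, limma adjusted p = 0.0606), and at 125 and 67.3 against 91.2 and 97.6 TPM without haemoglobin. H1f10 was at 8.87 and 5.96 against 2.34 and 4.44 TPM (0.96, limma adjusted p = 0.0697), and at 8.87 and 5.96 against 8.04 and 8.95 TPM without haemoglobin. Of the other H1 genes none reached 1 TPM in a library. H1f6, H1f7 and H1f9, genes of the male germ line, were listed at 0 throughout, and H1f8, the oocyte H1, stood at 0.461 TPM at most.

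H2B rested on 1 gene. H2bc4 took 79.3% and 75.5% of the H2B sum in the Itga6hi CD80pos libraries and 89.2% and 80.0% in the others. Its TPM was 110 and 68.8 against 25.4 and 39.0, a log2 fold change of 1.44 with SE 0.43 (limma adjusted p = 0.0314), and without haemoglobin 110 and 68.8 against 87.4 and 78.7 TPM, a change of 0.07. H2bc11 stood at 6.14 and 4.69 against 0.949 and 0.730 TPM, and had passed the filter through Itga6hi CD80pos alone. H2bc23 and H2bc24, which share 98.3% of the words of the shorter, summed to 6.68 and 5.68 against 0.0597 and 2.48 TPM. H2bc12 was tested but not called (limma adjusted p = 0.352), with 2.09 and 2.94 against 0 and 3.17 TPM. Its 2 Itga6low CD80neg libraries lay on either side of the other group. H2bc1, the testis H2B, was listed at 0 in every library, as was H2ac1, the testis H2A.

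H3 genes were low and their split among copies unstable. H3c3 led with 4.45 and 6.03 against 0.0668 and 1.25 TPM, with a log2 fold change of 2.00 with SE 0.44 (limma adjusted p = 0.0135) that was called under no other scaling. H3c8 was at 3.50 and 1.55 against 0 in both Itga6low CD80neg libraries, and had passed the filter through Itga6hi CD80pos alone. H3c11 stood at 5.47 and 0.425 against 0.278 and 0 TPM, while H3c10, which shares 85.3% of the words of the smaller of the 2, stood at 0 and 4.14 against 0.278 and 0 TPM. Each gene was thus high in a different Itga6hi CD80pos library, and their sum, again taken after the values were seen, was 5.47 and 4.56 against 0.556 and 0 TPM. H3c15 showed little difference at 1.47 and 2.09 against 1.26 and 1.39 TPM (limma adjusted p = 0.445). H3c13, with 0.278 and 3.56 against 0 and 1.93 TPM, varied more within groups than between them (limma adjusted p = 0.592). All 458 of the 31-base words of H3c13 also occur in Gm20628, which is not a member.

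H4 was led by H4c9 (Hist1h4i), at 30.98 and 26.2 against 1.62 and 7.16 TPM, with a log2 fold change of 2.67 with SE 0.58 (limma adjusted p = 0.0133). Without haemoglobin its levels were 30.99 and 26.2 against 5.57 and 14.4 TPM, still apart, a change of 1.55 (limma adjusted p = 0.092). H4c17, with its stem-loop 3 bases from the annotated end, was at 4.97 and 5.44 against 0.237 and 0.894 TPM. H4c2 stood at 2.81 and 3.38 against 0.820 and 0.949 TPM, and H4c8 at 2.66 and 2.99 against 0.662 and 0.309 TPM. These 3 genes had passed the filter through Itga6hi CD80pos alone. The mature H4 protein is encoded by many nearly identical genes, and of the 31-base words of an H4 gene a median of 51.0% were its own, against 20.2% for H2A, 41.5% for H2B, 37.0% for H3 and 96.3% for H1.

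The scaling changed which members were called. Median-of-ratios scaling left 7 higher and 0 lower (10.2% and 11.9% of all genes), quantile normalization 11 and 0 (12% and 10.9%), leaving out haemoglobin 6 and 0 (7.71% and 10.8%), and leaving out haemoglobin, mitochondrial, ribosomal protein and keratin genes 9 and 0 (13.9% and 11.3%). At an unadjusted p under 0.05 each of these 4 had 1 member lower. That member was H2ac19, chosen for mention after its values were seen, with log2 fold changes between -1.70 and -1.48. Of the members called, those that had passed the filter through Itga6hi CD80pos alone made up 6 of the 7 under median-of-ratios scaling, 10 of the 11 under quantile normalization, all 6 without haemoglobin and 8 of the 9 without the abundant classes, so these counts are no support for a difference by type. The 1 other member, under the 3 scalings where there was one, was H2ac24. The 6 members called under all 5 scalings were H2ac4, H2ac10, H2ac12, H2ac13, H2ac15 and H3c8. Each was at 0 in both Itga6low CD80neg libraries, which multiplying a library by a factor cannot change. Quantile normalization works by rank and is not such a factor. H1f0, H2bc4 and H4c9, 3 of the abundant genes called on deposited TPM, were called under none of the others.

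**Figure D4:**
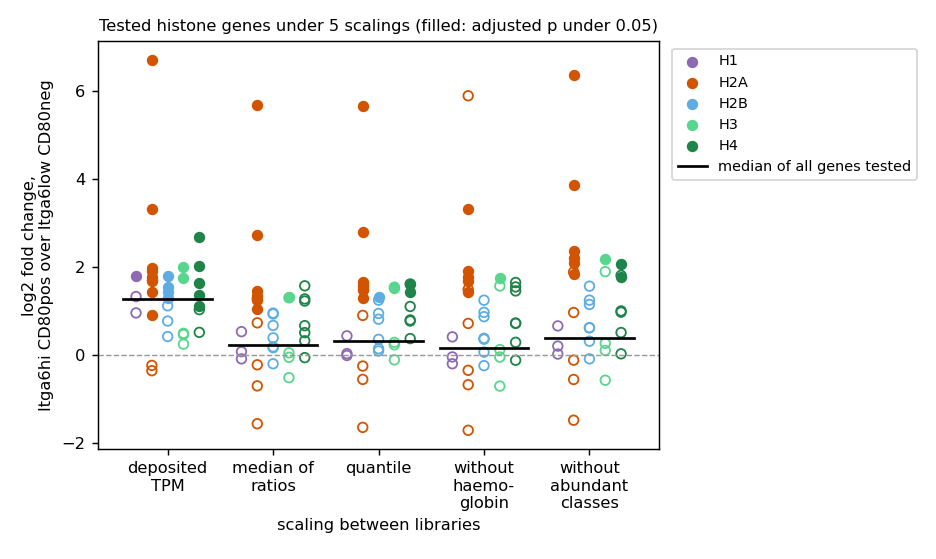
Log2 fold changes (Itga6hi CD80pos over Itga6low CD80neg) of the 33 tested histone genes under 5 scalings, coloured by type, filled where the limma adjusted p is under 0.05, with a black line at the median of all genes tested. That median falls from 1.27 on deposited TPM to 0.16 without haemoglobin, where the 6 filled points are genes that passed the filter through Itga6hi CD80pos alone.

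Histone TPM was next set against genes of DNA replication in the same library, a ratio that multiplying a library by a factor does not alter. The 32 replication genes, such as Pcna, the sliding clamp, and Mcm7, a subunit of the replicative helicase, were all tested and all called higher on deposited TPM, against the 57% background, and 18 of them were without haemoglobin, where the background was 7.71%. Of the 32, 5 had reached 1 TPM in the Itga6hi CD80pos libraries alone. Fewer of the 32 were called with either one of the Itga6hi CD80pos libraries left out, as was so over all genes. Their summed TPM was 1236 and 1053 against 85.6 and 185, a wider gap than that of the histone sum. Histone TPM per replication gene TPM was therefore lower in the Itga6hi CD80pos libraries, at 0.703 and 0.646 against 1.46 and 1.23, and the groups did not overlap. H1 per replication gene TPM was 0.253 and 0.177 against 0.730 and 0.553, and H2B 0.113 and 0.0866 against 0.33 and 0.264. H3 stood at 0.0172 and 0.0198 against 0.0246 and 0.0319, and H4 at 0.0416 and 0.0424 against 0.0562 and 0.0638. H2A alone overlapped, at 0.279 and 0.320 against 0.313 and 0.320, and without H2ac24 it did not, at 0.0464 and 0.0729 against 0.243 and 0.320. H1f0, H1f2 and H2bc4, summed together after their levels were seen, gave 0.3326 and 0.235 against 0.997 and 0.730, and all other members 0.370 and 0.411 against 0.459 and 0.503.

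**Figure D5:**
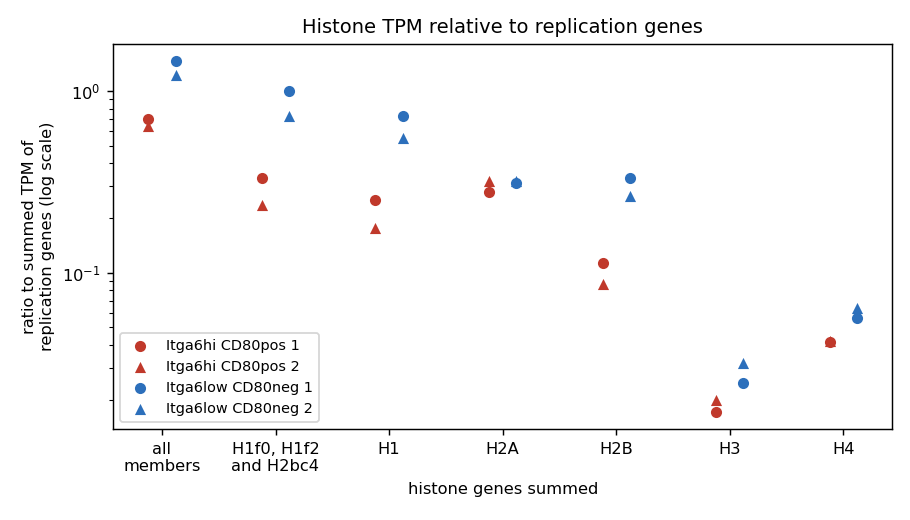
Summed histone TPM divided by the summed TPM of 32 replication genes in the same library (log axis), for all members, for H1f0, H1f2 and H2bc4, and for each type. The Itga6hi CD80pos ratios lie below the others in every column except H2A, where 0.279 and 0.320 meet 0.313 and 0.320.

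The family was also divided by annotated 3′ end, a description made after the values were seen. The 18 members with a polyA signal in the last 60 bases held 41.2% and 33.4% of the histone total in the Itga6hi CD80pos libraries and 53.3% and 49.4% in the others. The 20 members annotated to end within 60 bases of the stem-loop, with no such signal, held 40.8% and 49.8% against 23.7% and 29.9%. H2ac24 belongs to the second set and H1f0 and H1f2 to the first, so these shares rest largely on genes already described. Other RNAs that carry no polyA tail were measured for comparison. Of 10 rows 3 were tested and 1 was called higher and 0 lower (0 lower at an unadjusted p under 0.05), against 57% and 9.48% of all genes. It was Rny1, a Y RNA, at 6.25 and 14.3 against 0 in both Itga6low CD80neg libraries, which had passed the filter through Itga6hi CD80pos alone and so had to differ. Rmrp was at 4.64 and 8.02 against 2.83 and 16.04 TPM, and Rpph1 at 6.09 and 11.9 against 2.72 and 22.0 TPM, both overlapping. How far capture of tail-less RNA differed between the libraries was not tested.

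Start regions are shown for 3 members, an H2A gene, an H4 gene and an H1 gene, because genes of one type share promoter elements that the selection of members did not use. RefSeq start sites (GRCm38.p6) were found for 62 of the 69 members, giving 63 promoters, and the 250 bases before each start were searched on both strands. The CCAAT box, here the letters CCAAT, was present in 17 of 17 H2A and 15 of 15 H2B promoters. It was in 8 of 10 H3, 7 of 10 H1 and 3 of 11 H4 promoters, against 33.8% of all 32851 promoters. TATAAA was present in 44.4% of the members' promoters and in 12.4% of all. The octamer ATTTGCAT was found in 7 of 15 H2B and 6 of 17 H2A promoters, in none of H1, H3 or H4, and in 1.6% of all. None of these strings contains another. In the sequences, capitals mark CCAAT on either strand (CCAAT or ATTGG) and TATAAA.
H2ac13 (chr13:21716162-21716411, plus strand): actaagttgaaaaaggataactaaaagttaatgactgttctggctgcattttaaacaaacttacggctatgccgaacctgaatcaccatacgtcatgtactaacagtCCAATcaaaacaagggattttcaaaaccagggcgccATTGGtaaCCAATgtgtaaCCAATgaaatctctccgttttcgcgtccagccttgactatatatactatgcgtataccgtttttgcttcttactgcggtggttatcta
H4c9 (chr13:22041363-22041612, minus strand): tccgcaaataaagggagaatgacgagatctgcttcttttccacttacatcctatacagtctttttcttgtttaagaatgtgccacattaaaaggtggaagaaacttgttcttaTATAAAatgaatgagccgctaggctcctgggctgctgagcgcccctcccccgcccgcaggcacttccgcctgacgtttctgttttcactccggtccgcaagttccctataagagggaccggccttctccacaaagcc
H1f0 (chr15:79027962-79028211, plus strand): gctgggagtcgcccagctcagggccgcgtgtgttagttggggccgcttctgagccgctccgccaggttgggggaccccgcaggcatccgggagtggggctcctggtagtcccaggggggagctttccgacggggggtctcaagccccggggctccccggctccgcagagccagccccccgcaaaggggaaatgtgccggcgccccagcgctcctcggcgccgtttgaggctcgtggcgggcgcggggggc
H2ac13 holds CCAAT 4 times and neither of the other elements, H4c9 holds TATAAA once, and the H1f0 stretch shown holds none of the 3. That stretch ends at position 79028211, upstream of the GENCODE start of H1f0 at 79028450, so bases just before the latter were not searched. A match is a string of letters and was not shown to be a binding site.

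Factors that make and end histone messages were higher on deposited TPM. Most of their calls were lost after rescaling, while their median fold change stayed above that of all genes. Of 22 such genes 21 were tested, and 19 were called higher and 0 lower (0 lower at an unadjusted p under 0.05), against 57% of all genes called higher. The median log2 fold change was 1.60 against 1.27 for all genes. Without haemoglobin 0 were called, against 7.71% of all genes called higher, at a median of 0.58 against 0.16. Of the 19, 2 had reached 1 TPM in the Itga6hi CD80pos libraries alone. Slbp, which encodes the stem-loop binding protein, stood at 30.9 and 29.2 against 7.67 and 13.6 TPM (limma adjusted p = 0.02, and 0.679 without haemoglobin). Srrt, a partner of the cap-binding complex, was at 90.4 and 78.6 against 21.4 and 20.5 TPM, and Ncbp1, a subunit of that complex, at 48.5 and 44.2 against 5.99 and 12.98 TPM. Sympk, the scaffold of the cleavage machinery, was at 42.7 and 46.9 against 9.88 and 13.6 TPM, and Fip1l1, a polyadenylation factor, at 40.3 and 37.2 against 11.5 and 12.7 TPM. All 4 were called on deposited TPM, and none without haemoglobin. Calls among the 19 were lost with either one of the Itga6hi CD80pos libraries dropped, as were calls over all genes.

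Histone chaperones and assembly factors, which carry histones to DNA, kept more of their calls. All 34 were tested, 30 were called higher and 0 lower (0 lower at an unadjusted p under 0.05), against 57% of all genes called higher, with a median log2 fold change of 2.04 against 1.27 for all genes. Without haemoglobin 11 were called, against 7.71% of all genes, at a median of 0.90 against 0.16. Of the 30, 4 had reached 1 TPM in the Itga6hi CD80pos libraries alone. Ncl, nucleolin, stood at 464 and 435 against 35.96 and 60.6 TPM and was called under all 5 scalings. So were Set, at 358 and 349 against 27.2 and 58.4 TPM, and Anp32b, at 265 and 232 against 34.9 and 50.8 TPM, both acidic proteins that bind histones. Npm1, nucleophosmin, was at 1164 and 1129 against 93.2 and 244 TPM and was called under 3 of the 4 other scalings. Dropping either one of the Itga6hi CD80pos libraries lowered the count of 30, and the count over all genes too.

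The variants listed here as replication-independent are core histone genes outside the rule, while H1f0 and H1f10 stayed among the members. The 13 rows of these variants summed to 3741 and 3571 against 673 and 1465 TPM, above the members in every library. Of these 9 were tested, and 6 were called higher and 0 lower (0 lower at an unadjusted p under 0.05), a share near the 57% of all genes called higher. Without haemoglobin 4 were called, against 7.71% of all genes. Calls among the 6 were lost with either one of the Itga6hi CD80pos libraries dropped, as were calls over all genes. H2az1, the H2A.Z variant of promoters, stood at 1132 and 966 against 76.0 and 184 TPM, with a log2 fold change of 3.13 (limma adjusted p = 0.0105) that was called under all 5 scalings. H2ax, the variant phosphorylated at DNA breaks, at 105 and 110 against 7.36 and 10.4 TPM, and Macroh2a1, at 170 and 149 against 16.1 and 27.8 TPM, were also called under all 5. H2aj was at 275 and 295 against 41.9 and 113 TPM and was called on deposited TPM only. H3f3a and H3f3b, which both encode the H3.3 variant and were chosen for mention after their values were seen, were not called, at 753 and 767 against 213 and 418 TPM and at 1126 and 1138 against 287 and 673 TPM. Without haemoglobin H3f3a stood at 753 and 767 against 732 and 842 TPM, overlapping. The summed H3 members came to 1.13% and 1.10% of the H3f3a and H3f3b sum in the Itga6hi CD80pos libraries. In the others they came to 0.422% and 0.541%, and these groups did not overlap. Of the 12 H3 members 9 have the stem-loop, which bears on their capture from polyA RNA. The percentages are therefore of captured RNA and need not hold in the cells.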

How the data were processed

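Bulk RNA sequencing of 4 libraries in 2 groups was used. Libraries were prepared with a NEBNext low-input kit from Zymo-extracted RNA, per the labels' protocols. The authors used kallisto 0.44.0 and mm10, per the submitters' processing notes, and deposited TPM per gene; the annotation and the step from transcripts to genes are not given in the sources used here. Every column totals 1000000, so depth is unknown and no counting interval is given. Values were tested as log2(TPM + 1), for genes reaching 1 TPM in 2 or more libraries, in limma 3.58.1 (R 4.3.3; trend, two-sided, Benjamini-Hochberg over 13474 genes, threshold 0.05), after the code was checked on simulated data. Fold changes on this scale understate low genes. Sums, shares and ratios were computed per library with no test. Sequences came from GENCODE M21 and RefSeq. Named members were tested H1 genes and, per other type, the 4 highest by mean TPM and the 2 called members at either end of fold change; for the other lists, up to 4 called genes by mean TPM. The members and lists were chosen with earlier results of these data known. Alternatives were other pseudocounts (0.1 and 5), filters, scalings, a replicate block, and leaving out libraries or members. The value of 1 marker gene is not reported here.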

Additional observations from a re-analysis of the deposited data

How the results depend on the processing

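Calls depended on scaling and on single libraries. The count of members called higher, 21, was 0 with no filter, 6 with a mean of at least 5 TPM, 7 under median-of-ratios scaling, 11 under quantile normalization, 6 without haemoglobin genes, 9 without the abundant classes and 0 to 20 when 1 library was left out; the lone library of a group was then assumed to vary like the others. In the same order, factors of histone mRNA gave 0 with no filter, then 1, 1, 0 and 3 under the scalings, and 0 to 19 with a library left out. Chaperones gave 0, then 11, 15, 11 and 17, and 0 to 30. Replication genes gave 0 with no filter, 18 without haemoglobin, and 0 to 32. Variants gave 0, and 0 to 8, and tail-less RNAs 0, and 0 to 1. Log2 fold changes that turned were, under median-of-ratios scaling, H1f10 -0.083, H2ac18 -0.22 and H3c15 -0.51; under quantile normalization H1f2 -0.0062, H2ac18 -0.25 and H3c15 -0.11; without haemoglobin H1f10 -0.19, H1f2 -0.039, H2ac18 -0.34 and H3c15 -0.70; without the abundant classes H2ac18 -0.11 and H3c15 -0.57. Leaving out a library moved H2ac19 from -1.14 to 0.44, H2bc12 from -0.25 to 1.80 and H3c13 from -0.42 to 1.42. Sums (log2 difference; median-of-ratios, without haemoglobin, without abundant classes) were 0.32, 0.20 and 0.45 for H1, 1.81, 1.70 and 1.94 for H2A, 0.31, 0.20 and 0.44 for H2B, 1.15, 1.10 and 1.35 for H3, 1.32, 1.23 and 1.48 for H4 and 0.91, 0.79 and 1.04 in all; H3 was 1.56 with pseudocount 5. Without the top member of each type, H2A was 0.89 and all types 1.39, the shares differed by -1.23 (H1), -10.6 (H2A), 4.61 (H2B), 3.30 (H3) and 3.91 (H4) percentage points, and histone per replication gene TPM by -1.78 on the log2 scale. With haemoglobin left out as well, chosen after seeing the data, the sums differed by -0.053 (H1), -0.47 (H2A), 0.77 (H2B), 0.88 (H3), 0.88 (H4) and 0.0034 (all types) on the log2 scale. With tested members only, the H3 share differed by -0.18 points, since H3c10 and H3c11 drop out. Apart from these constructions the cause was not tested. The replicate numbers were not shown to pair the libraries (correlation of deviations 0.109, 2 pairs), and with them as a block 23 members were called higher; of the named members, H1f10 gained a call (limma adjusted p = 0.0422) and H2ac18 lost its call (0.0693). Depth is unknown, so values near 0 cannot be told from absence.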
